A study of Mus musculus with 6 samples.

Results

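Connexins and the adhesion proteins that hold endocrine cells together were examined as a set of 10 genes, taken by symbol from a count table of 24421 genes: the connexins Gjd2, Gja1, Gjb1 and Gjb2, the cadherins Cdh1 and Cdh2, the adhesion molecules Ncam1 and Epcam, and the contact receptor Epha5 with its ligand Efna5. All 10 were found, and 9 of them had enough reads to enter the test, which covered 13736 genes. The table holds 6 RNA-seq libraries of isolated mouse pancreatic islets on a C57BL/6J background, 3 of controls and 3 of a Dhps knockout directed to β cells, given the genotype C57.DhpsloxP.MIP1-CreERT. That label names floxed alleles of Dhps, the gene for deoxyhypusine synthase, and a tamoxifen-inducible Cre recombinase under the mouse insulin promoter, so that recombination is directed to β cells and the other islet cells keep the gene. The labels do not say whether control mice carried Cre or floxed alleles, do not spell out the prefix HF of every library name, and give no age, treatment or time. They also do not say that the libraries of a group came from separate mice, and the p-values then speak only of the spread among these samples, which may be technical.

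Islet β cells work as an electrical unit. Connexins form channels that join the cytoplasm of neighbouring cells, and connexin 36, made by Gjd2, is the channel protein that couples β cells and synchronises their calcium oscillations and insulin pulses. E-cadherin (Cdh1) and N-cadherin (Cdh2) bind their like on the next cell and anchor to actin through catenins, the neural cell adhesion molecule Ncam1 takes part in sorting endocrine cell types within the islet, and Epcam is an adhesion protein of epithelial cells. Contact between EphA5 and ephrin-A5 on adjacent β cells is known to tune basal and stimulated insulin secretion.

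Each library held 21027737 to 23249895 counts. Islet hormone genes took 45.1% to 52.1% of the counts in every library. Dhps itself did not differ between the labels, with 260, 321 and 312 counts in control islets and 266, 271 and 225 in islets labelled knockout (log2 fold change −0.07 ± 0.12 SE, edgeR adjusted p = 0.742). Its counts sum all exons and all islet cells and share exon sequence with Wdr83, so directions below refer to libraries labelled knockout. Markers of acinar cells, the digestive enzyme cells around islets, were higher in all 3 of these: their share of counts was 0.753% ± 0.550 in control islets and 2.91% ± 0.148 in islets labelled knockout (SD, n = 3 each; p = 0.1 in an exact permutation test, two-sided, which is the least that 3 against 3 allow). Control 3 held 0.118% (95% Wilson interval 0.117 to 0.120, counting error only).

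The region upstream of the start site is shown for 3 connexin genes: for Gjd2 because another transcript is read across it, and for Gja1 and Gjb2 because their transcripts differed between the labels. Each run is the 250 bases before the annotated start, 5′ to 3′ on the gene's strand, from RefSeq on GRCm38.p6, the build also called mm10. The start sites match the gene models of the count table. RefSeq windows were taken for 7 of the 10 genes, and Cdh2 was left out of this step without a search.
Gjd2: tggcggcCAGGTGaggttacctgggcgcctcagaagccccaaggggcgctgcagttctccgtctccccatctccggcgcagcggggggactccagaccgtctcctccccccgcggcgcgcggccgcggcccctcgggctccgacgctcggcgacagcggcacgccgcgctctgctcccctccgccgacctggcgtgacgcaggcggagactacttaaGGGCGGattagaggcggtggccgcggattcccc
Gja1: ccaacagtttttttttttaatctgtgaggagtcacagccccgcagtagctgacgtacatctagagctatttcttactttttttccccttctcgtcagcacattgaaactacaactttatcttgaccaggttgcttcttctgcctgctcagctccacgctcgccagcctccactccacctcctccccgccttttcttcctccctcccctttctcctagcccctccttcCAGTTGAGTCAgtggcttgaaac
Gjb2: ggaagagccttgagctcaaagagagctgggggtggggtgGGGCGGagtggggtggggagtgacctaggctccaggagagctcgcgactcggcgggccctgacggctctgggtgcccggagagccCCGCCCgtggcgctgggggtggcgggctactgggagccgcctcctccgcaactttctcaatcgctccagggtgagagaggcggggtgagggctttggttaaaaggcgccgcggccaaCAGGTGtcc
Capitals mark matches on either strand to the E-box CANNTG, the GC box GGGCGG, the AP-1 site TGANTCA, the cyclic AMP response element TGACGTCA, the TATA box TATAAA or the CCAAT box. The Gjd2 window (chr2:114013620-114013869, minus strand) held 1 E-box and 1 GC box in 74% G and C. That of Gja1 (chr10:56377050-56377299, plus strand) held 1 E-box and 1 AP-1 site, which overlap in the last capital run, at 50% G and C. For Gjb2 (chr14:57104703-57104952, minus strand) there were 1 E-box and 2 GC boxes at 69.2% G and C. Among 32841 RefSeq windows of 250 bases, 66.2% held an E-box, 32.75% a GC box, 6.75% the AP-1 letters, 1.55% the cyclic AMP response element, 12.4% the TATA box and 33.9% the CCAAT box. A match is only a match of letters.

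Among the 9 tested genes, 2 connexins rose in the knockout-labelled islets, Gja1 and Gjb2, and no gene of the set fell. By edgeR's quasi-likelihood test 2 of 9 were called, where 6.76% of all tested genes were called in either direction, 4.14% as higher and 2.63% as lower. At an unadjusted p under 0.05, 3 were higher (Gja1, Gjb1 and Gjb2) and 2 lower (Gjd2 and Cdh1). The same level was met by 26.5% of all tested genes, 14.9% as higher and 11.6% as lower, the shares against which each unadjusted count below is to be read. DESeq2 called Gjd2 and Cdh1 as lower and limma-voom neither. For 4 of the 9 the control and knockout-labelled values did not overlap, against 32.1% of all tested genes: 3 were higher in islets labelled knockout (Gja1, Gjb1 and Gjb2; 16.9% of all genes) and 1 was lower (Cdh1; 15.2%). The median log2 fold change over the 9 was 0.03, and that of all tested genes 0.01. The count of rises was 0 without control 2, 1 without control 3 and without knockout-labelled replicates 1 or 3, 2 without replicate 2 and 3 without control 1.

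**Figure D1:**
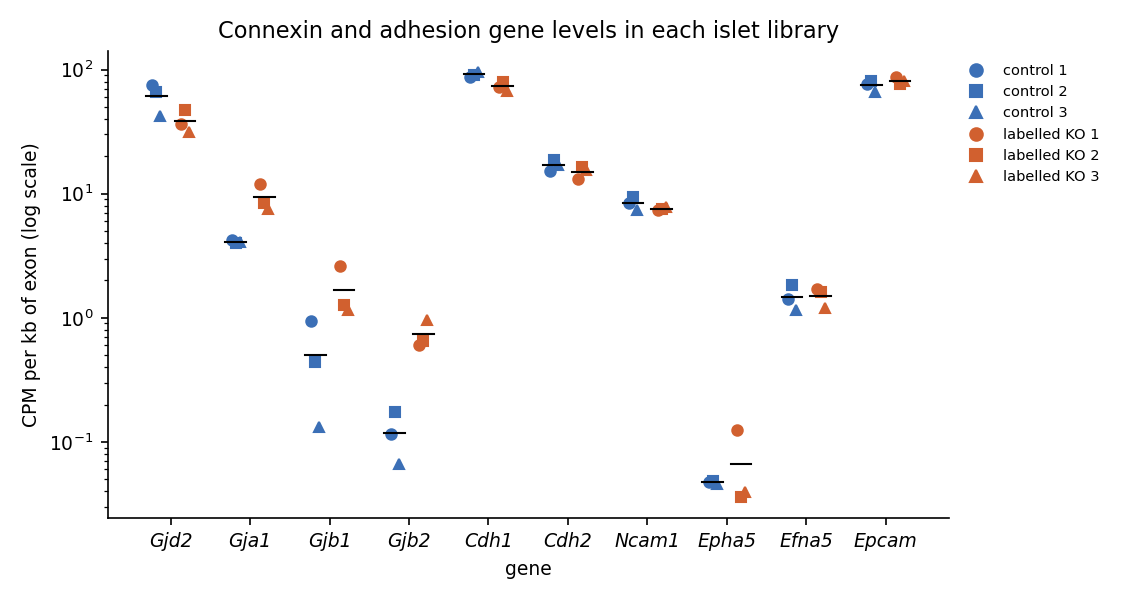
Level of each of the 10 genes in every library, as CPM per kb of exon on a log axis; blue symbols are controls, orange symbols knockout-labelled libraries, symbol shape is the replicate and black bars are group means. Cdh1, Epcam and Gjd2 lie at the top, and Gja1, Gjb1 and Gjb2 are the genes whose orange symbols all lie above the blue ones.

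Levels of different genes were compared as CPM per kb, counts scaled to library size (CPM) and then divided by the summed exon length. In the controls the order ran from Cdh1 (91.4 ± 3.94 CPM per kb, SD, n = 3), Epcam (74.5 ± 7.52) and Gjd2 (61.1 ± 16.9) through Cdh2 (17.02 ± 1.74), Ncam1 (8.36 ± 1.02) and Gja1 (4.11 ± 0.146) to Efna5 (1.47 ± 0.347), Gjb1 (0.505 ± 0.412), Gjb2 (0.118 ± 0.0538) and Epha5 (0.0472 ± 0.00127). Epcam and Gjd2 overlapped among controls, while all 3 Cdh1 values exceeded all 3 of Epcam. In the knockout-labelled libraries Epcam (81.2 ± 5.07 CPM per kb) and Cdh1 (73.1 ± 5.52) overlapped each other, and Gjd2 followed at 38.3 ± 7.92. There Gja1 (9.31 ± 2.28 CPM per kb) and Ncam1 (7.55 ± 0.221) overlapped, as did Gjb1 (1.68 ± 0.819) and Efna5 (1.498 ± 0.271).

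Gjd2, the β cell connexin, had the highest level of any connexin in every library. Its counts were 4678, 4552 and 3082 in control islets and 2392, 2880 and 1784 in islets labelled knockout. Scaled to library size these were 217, 189.7 and 121.9 CPM against 105, 135 and 90.6 CPM. Controls 1 and 2 were thus above all 3 knockout-labelled libraries, and control 3 lay inside their range. Its log2 fold change of −0.67 ± 0.21 (SE, 95% interval −1.14 to −0.21) had an edgeR adjusted p of 0.0769, which missed the threshold of 0.05. It passed with DESeq2 (adjusted p = 0.00844), with no filter on low counts (edgeR adjusted p = 0.0354) and without control 3 (−0.89, edgeR adjusted p = 0.0348). In RNA from whole islets, fewer cells of a type and less RNA per cell cannot be told apart. Of 12 β cell marker genes, all tested, 6 fell and 0 rose, with a median log2 fold change of −0.69; 8 were lower and 0 higher at an unadjusted p under 0.05. Their summed level ranged from 367498 to 496288 CPM in control islets and from 393855 to 448442 CPM in islets labelled knockout, most of it insulin, and none was at 0. Their part in the Gjd2 values was not tested.

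The Gjd2 gene spans 114009601 to 114013619 of chromosome 2 (mm10, minus strand) in 2 exons of 2879 bp together. Its first exon shares 55 bases, 1.91% of the model, with the first exon of A530058N18Rik on the opposite strand, which also covers the whole promoter window printed above (114013565 to 114013897). A530058N18Rik had 792, 821 and 978 counts in control islets and 721, 649 and 470 in islets labelled knockout. Its CPM did not overlap between the groups, at 36.5 ± 2.24 and 28.7 ± 4.23 (log2 fold change −0.35 ± 0.12 SE, edgeR adjusted p = 0.11). Control 3 was the highest library for A530058N18Rik and the lowest control for Gjd2. Whether the counting used strand is not given in the sources used here, so reads on the shared bases cannot be assigned.

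The genes with the library profile most like that of Gjd2 were Ccsap, Atxn1 and Nipbl. Likeness was measured as the root mean square distance between centred log2 CPM values over the 6 libraries, which was 0.14 for Ccsap, 0.16 for Atxn1 and 0.16 for Nipbl, against a median of 0.47 over 10178 genes. None of the 3 was called by edgeR, with log2 fold changes of −0.57 ± 0.21 for Ccsap (adjusted p = 0.125), −0.44 ± 0.24 for Atxn1 (adjusted p = 0.273) and −0.47 ± 0.19 for Nipbl (adjusted p = 0.155).

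Gja1 encodes connexin 43, a widespread gap junction protein of vessels, stroma, muscle and glia. It rose from 13.2, 12.3 and 12.7 CPM in control islets to 36.9, 26.3 and 23.5 CPM in islets labelled knockout. The counts behind these were 286, 296 and 321, then 839, 560 and 463. Controls varied by 3.56% (coefficient of variation), while knockout-labelled replicate 1 stood above the other two. The log2 fold change was 1.18 ± 0.16 (SE, 95% interval 0.82 to 1.55, edgeR adjusted p = 0.00949). It was called under all 8 other settings of normalisation, filter, tool or block, and without control 2 it reached an edgeR adjusted p of 0.0502 at a log2 fold change of 1.14. The gene lies on chromosome 10 from 56377300 to 56390419 (plus strand, 2 exons, 3105 bp), with no exon shared with another gene.

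Among cells that commonly carry connexin 43, stellate, fibroblast and endothelial markers were also higher, while the sums of Schwann cell markers overlapped. Of 14 stellate cell and fibroblast markers, all tested, 5 rose and 0 fell, with 10 higher and 0 lower at an unadjusted p under 0.05 (14.9% and 11.6% of all genes). Col3a1 and Col1a1, the most abundant of the 14, were not called. Their summed level was 114, 206 and 353 CPM in control islets and 502, 449.9 and 400.01 CPM in islets labelled knockout. Among 12 endothelial markers 5 rose and 0 fell (8 and 0 at an unadjusted p under 0.05), with sums of 402 to 524 CPM in control islets and 571 to 672 CPM in islets labelled knockout. For 7 tested Schwann cell markers of 8, 1 rose and 0 fell, and the sums of 79.5 to 97.2 and 89.2 to 96.9 CPM overlapped. Macrophage markers were higher too: of 12, all tested, 6 rose and 0 fell (11 and 0 at an unadjusted p under 0.05), with sums of 186 to 189.8 CPM in control islets and 306 to 405 CPM in islets labelled knockout. No marker of these lists was at 0 in every library. Across the controls the stellate sum spread from 114 to 353 CPM while Gja1 stayed between 12.3 and 13.2 CPM. Gja1 per 1000 CPM of endothelial markers was 27.1 ± 5.07 in control islets and 47.3 ± 6.98 in islets labelled knockout, and per 1000 CPM of stellate markers 70.6 ± 41.1 and 63.6 ± 8.58, ratios chosen after the data were seen. The part of these cells in the Gja1 values was not tested.

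Gjb2 and Gjb1 encode connexins 26 and 32, which join acinar cells of the exocrine pancreas. Gjb2 had 6, 10 and 4 counts in control islets and 33, 33 and 45 in islets labelled knockout, or 0.282, 0.417 and 0.158 CPM against 1.45, 1.55 and 2.29 CPM. The groups were well separated, though from few reads. Gjb2 rose by a log2 fold change of 2.61 ± 0.47 (SE, 95% interval 1.55 to 3.67, edgeR adjusted p = 0.0206). It missed the threshold without control 2 (edgeR adjusted p = 0.0586), control 3 (0.0671), or knockout-labelled replicate 1 (0.0579) or 3 (0.0582), with log2 fold changes between 2.30 and 2.98. Gjb2 lies on chromosome 14 from 57098602 to 57104702 (minus strand, 2 exons, 2404 bp).

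Gjb1 varied more between libraries of one label. Its counts were 37, 19 and 6 in control islets and 108, 49 and 41 in islets labelled knockout, or 1.71, 0.792 and 0.237 CPM against 4.75, 2.30 and 2.08 CPM. Every knockout-labelled library was above every control, but the highest control was close to the lowest of them. The log2 fold change of 1.76 ± 0.60 (SE, 95% interval 0.43 to 3.08) was not called (edgeR adjusted p = 0.0975). It passed with DESeq2 (adjusted p = 0.0206) and without control 1 (2.56, edgeR adjusted p = 0.0422). The gene lies on the X chromosome from 101376376 to 101385629 (plus strand, 5 exons, 1809 bp).

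Acinar transcripts were higher in the same libraries. Of 18 acinar markers 17 were tested, of which 1 rose (Amy1) and 0 fell, with a median log2 fold change of 1.94. In 15 of them all 3 knockout-labelled libraries were higher than all controls, as in 16.9% of all tested genes. At an unadjusted p under 0.05, 15 were higher and 0 lower. Cela2a, an elastase, and Pnlip, pancreatic lipase, were the most abundant of them. The summed acinar level was 11595, 10222 and 1075 CPM in control islets and 27378, 30031 and 31739 CPM in islets labelled knockout, and no acinar marker was at 0 in every library. Control 3, lowest in acinar markers, was also the lowest library for Gjb1 and for Gjb2. Knockout-labelled replicate 1 had the highest Gjb1 level and the lowest acinar sum of its group. Per 1000 CPM of acinar markers, Gjb1 stood at 0.149 ± 0.0717 CPM in control islets and 0.105 ± 0.0594 CPM in islets labelled knockout, and the groups overlapped. Gjb2 stood at 0.0706 ± 0.0668 and 0.0589 ± 0.0114 CPM, and its overlap came from control 3 alone, at 0.147 from 4 Gjb2 counts. Controls 1 and 2, at 0.0240 and 0.0408, lay below all 3 knockout-labelled libraries (0.0530, 0.0516 and 0.0720). These ratios were chosen after the data were seen, and the part of acinar cells in the Gjb1 and Gjb2 values was not tested.

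**Figure D2:**
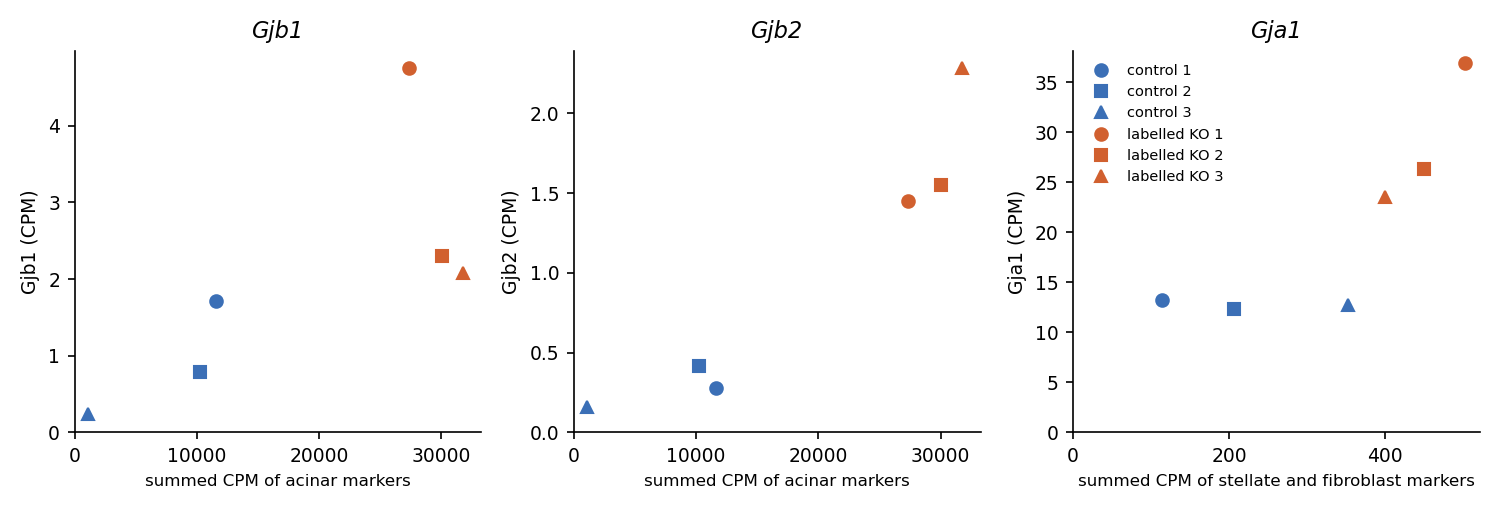
Gjb1 and Gjb2 against the summed level of 18 acinar markers, and Gja1 against that of 14 stellate and fibroblast markers, in CPM on linear axes, 1 symbol per library; blue is control, orange knockout-labelled. Control 3 lies lowest in both acinar plots, and the 3 controls share a Gja1 level of about 12.3 to 13.2 CPM across stellate sums of 114 to 353 CPM.

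The makeup of the connexin transcripts differed between the labels. Of the summed CPM per kb of all 20 connexin genes in the table, Gjd2 made up 90.8%, 89.4% and 86.6% in control islets and 62.8%, 76.3% and 68.9% in islets labelled knockout. The groups did not overlap. Gja1 made up 6.30% ± 1.79 in control islets and 16.9% ± 3.36 in islets labelled knockout (SD, n = 3 each). The share of Gjd2 depends on the other connexins too: Gja1 and Gjb2 rose, while Gjd2 itself was not called. These shares describe the libraries and were not tested. In RNA from whole islets they do not show the makeup within a cell type.

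**Figure D3:**
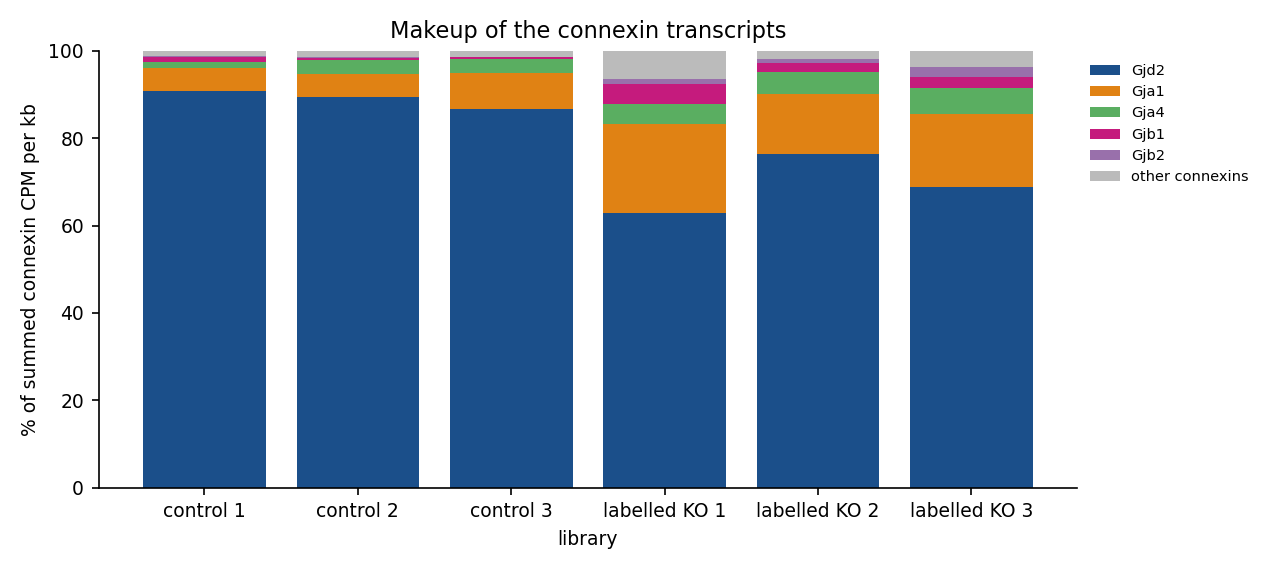
Percentage of the summed connexin level (CPM per kb over 20 connexin genes) taken by each named connexin in each library, as stacked bars from 0 to 100%. The Gjd2 block covers 86.6% to 90.8% of each control bar and 62.8% to 76.3% of each knockout-labelled bar.

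Of the 19 other connexins and pannexins, 4 had enough reads for the test and 0 were called in either direction by edgeR, DESeq2 or limma-voom. At an unadjusted p under 0.05, 1 was higher and 0 were lower. The most abundant per kb was Gja4, connexin 37 of vessel walls. It had 2.22, 3.79 and 2.69 CPM in control islets and 4.53, 5.26 and 4.67 CPM in islets labelled knockout (log2 fold change 0.73 ± 0.25 SE, edgeR adjusted p = 0.102). Panx1, a channel protein that releases ATP, followed with 0.30 ± 0.25 (edgeR adjusted p = 0.463). Another 3 genes of this list had no count in any library.

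Cdh1, the E-cadherin gene, was lower in every knockout-labelled library than in every control, by a small margin. Its level was 387, 402 and 422 CPM in control islets and 321, 348 and 299 CPM in islets labelled knockout, from 5888 or more counts in each. The log2 fold change of −0.32 ± 0.11 (SE, 95% interval −0.58 to −0.07) did not pass in edgeR (adjusted p = 0.106) and passed with DESeq2 (adjusted p = 0.0178). E-cadherin is made by endocrine, acinar and duct cells alike, and these counts cannot divide it among them. The gene lies on chromosome 8 from 106603368 to 106670246 (plus strand, 16 exons).

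Cdh2, the N-cadherin gene, had 70.8, 86.9 and 79.5 CPM in control islets and 61.3, 76.6 and 71.5 CPM in islets labelled knockout, and the groups overlapped. Its log2 fold change was −0.18 ± 0.12 (SE, 95% interval −0.44 to 0.08, edgeR adjusted p = 0.353). Within each library the Cdh1 level was several times that of Cdh2: the ratio per kb was 5.76, 4.86 and 5.59 in control islets and 5.52, 4.78 and 4.41 in islets labelled knockout. These ratios overlapped between the groups.

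Catenins and other cadherins were read as a list. Of its 36 genes 25 were tested, 3 fell and 0 rose, where 2.63% of all tested genes were called lower and 4.14% higher. The median log2 fold change was −0.02. At an unadjusted p under 0.05, 7 were lower and 4 higher (11.6% and 14.9% of all genes). β-catenin, made by Ctnnb1, was the most abundant at 249 ± 10.2 CPM in control islets and 276 ± 8.17 CPM in islets labelled knockout (log2 fold change 0.15 ± 0.10, edgeR adjusted p = 0.382). Plakoglobin, made by Jup, had a log2 fold change of 0.08 ± 0.10. Those that fell were the neuronal cadherin Cdh8 (−0.59 ± 0.14, edgeR adjusted p = 0.0364), the neural δ-catenin Ctnnd2 (−0.48 ± 0.11, adjusted p = 0.037) and Cdh22 (−0.69 ± 0.18, adjusted p = 0.0487). For each of the 3, all knockout-labelled libraries lay below all controls, as in 15.2% of all tested genes. Of the 25 tested, 6 were lower without overlap and 5 higher (16.9% of all genes), with Ctnnb1 among the higher. None of the 3 was called without control 2, control 3 or knockout-labelled replicates 1 or 3, with edgeR adjusted p from 0.0571 to 0.149. Cdh8 was not called without control 1 either (0.0673), nor Ctnnd2 (0.0708) and Cdh22 (0.0572) without replicate 2. Cdh22 was not called with limma-voom (adjusted p = 0.0601) or upper-quartile factors (edgeR adjusted p = 0.0552).

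Ncam1 and Epcam did not separate the groups. Ncam1 had 79.05, 88.3 and 69.1 CPM in control islets and 69.2, 71.00 and 73.3 CPM in islets labelled knockout, a log2 fold change of −0.15 ± 0.11 (SE, 95% interval −0.38 to 0.09, edgeR adjusted p = 0.413). The knockout-labelled values varied by 2.93% and lay within the control range, which varied by 12.2% (coefficients of variation). Epcam had 157, 167 and 137 CPM, then 178, 157 and 167 CPM, a log2 fold change of 0.12 ± 0.11 (SE, 95% interval −0.12 to 0.37, edgeR adjusted p = 0.509). These intervals leave out changes of 1.5-fold or more in either direction for both genes. Ncam1 lies on chromosome 9 from 49502146 to 49799069, and Epcam on chromosome 17 from 87635979 to 87651127.

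Other adhesion molecules of the neural type were read from a list of 28, of which 22 were tested, 2 fell and 0 rose (median log2 fold change 0.09; 2 lower and 1 higher at an unadjusted p under 0.05). Negr1, a lipid-anchored adhesion molecule of neurons, fell from 12.96 ± 1.16 to 7.36 ± 1.08 CPM (log2 fold change −0.82 ± 0.15 SE, edgeR adjusted p = 0.0225). It missed the threshold without control 2, control 3 or knockout-labelled replicate 1. The most abundant genes of the list per kb were Alcam (0.05 ± 0.13, edgeR adjusted p = 0.846) and Cntn1 (−0.32 ± 0.21, edgeR adjusted p = 0.358).

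Tight junction genes and membrane partners of Epcam gave the most calls among the related lists. Of 20 such genes 18 were tested, 5 rose and 0 fell, with a median log2 fold change of 0.19; at an unadjusted p under 0.05, 6 were higher and 1 lower. The claudins Cldn10 (2.77 ± 0.54, edgeR adjusted p = 0.0248) and Cldn8 (2.06 ± 0.41, adjusted p = 0.0258) rose from low levels of 0.229 ± 0.148 and 0.861 ± 0.346 CPM. The tetraspanin Cd9 rose from 26.7 ± 7.68 to 52.3 ± 13.4 CPM (0.97 ± 0.22, adjusted p = 0.0349), and the hyaluronan receptor Cd44 from 41.6 ± 3.66 to 63.1 ± 12.3 CPM (0.60 ± 0.14, adjusted p = 0.0362). Cldn6, named because it completes the 5, rose by 0.53 ± 0.13 (adjusted p = 0.0454). None of the 5 was called without control 2, control 3 or knockout-labelled replicate 1, and only Cldn8 was called without replicate 3. Cd9 and Cd44 were not called without control 1 either (edgeR adjusted p = 0.0609 and 0.0721). Claudins 4 and 7 were the most abundant of the list: Cldn4 ranged from 109.97 to 202 CPM in control islets and from 129 to 336 CPM in islets labelled knockout, and Cldn7 had a log2 fold change of 0.15 ± 0.10. Duct markers were higher in the same libraries, as were the macrophage markers described above, with 2 of 10 tested duct genes rising, 0 falling and sums of 965 to 1285 CPM in control islets against 1498 to 1904 CPM; 12 duct genes were listed and none was at 0 in every library. Acinar markers were higher too, as described above. Their median log2 fold change was 1.94, against 0.81 for duct and 0.90 for macrophage markers. The part of acinar cells, duct cells and macrophages in these values was not tested.

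Efna5 and Epha5, the ligand and receptor of β cell contact signalling, were at the low end. Efna5 had 7.41, 9.67 and 6.05 CPM in control islets and 8.89, 8.51 and 6.25 CPM in islets labelled knockout, with full overlap. Its log2 fold change was 0.03 ± 0.21 (SE, 95% interval −0.44 to 0.51, edgeR adjusted p = 0.94), and it was negative without control 3 or without knockout-labelled replicates 1 or 2. Epha5 had 8, 9 and 9 counts in control islets and 22, 6 and 6 in islets labelled knockout, over a model of 7785 bp. It was too low for the test, and knockout-labelled replicate 1 alone stood above the other libraries. With no filter on low counts its log2 fold change was 0.48 ± 0.68 (SE, 95% interval −0.96 to 1.93, edgeR adjusted p = 0.698), so no difference was detectable at this depth. Efna5 lies on chromosome 17 from 62602957 to 62881317 and Epha5 on chromosome 5 from 84054765 to 84417382, both on the minus strand.

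Of 20 other Eph receptors and ephrins 15 were tested, 1 rose and 0 fell, with a median log2 fold change of 0.34; at an unadjusted p under 0.05, 4 were higher and 1 lower. Epha2, an epithelial Eph receptor that responds to ephrin-A ligands, rose from 6.57, 6.25 and 3.28 CPM to 13.02, 11.6 and 8.84 CPM (1.06 ± 0.26, edgeR adjusted p = 0.0419). It missed the threshold without control 2 or 3 or any one knockout-labelled library, with adjusted p up to 0.126. The most abundant per kb were Efnb3 (0.34 ± 0.14, edgeR adjusted p = 0.157) and Efna1 (0.55 ± 0.26, edgeR adjusted p = 0.206).

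**Figure D4:**
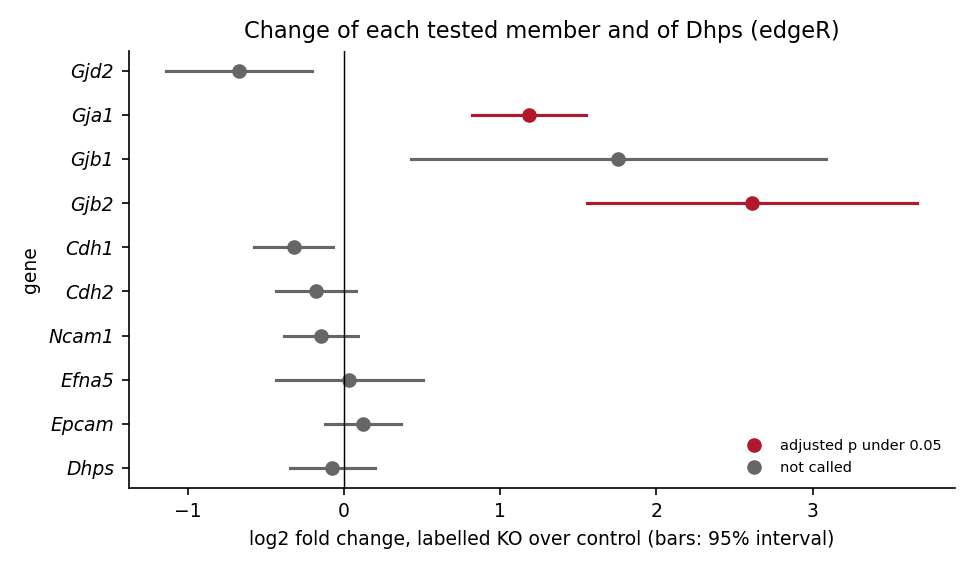
Log2 fold change of each tested gene of the set and of Dhps, knockout-labelled over control, as points with 95% intervals from edgeR; red marks an adjusted p under 0.05. Gja1 (1.18) and Gjb2 (2.61) are called, and the intervals of Gjd2, Gjb1 and Cdh1 exclude 0 without passing after adjustment.

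**Figure D5:**
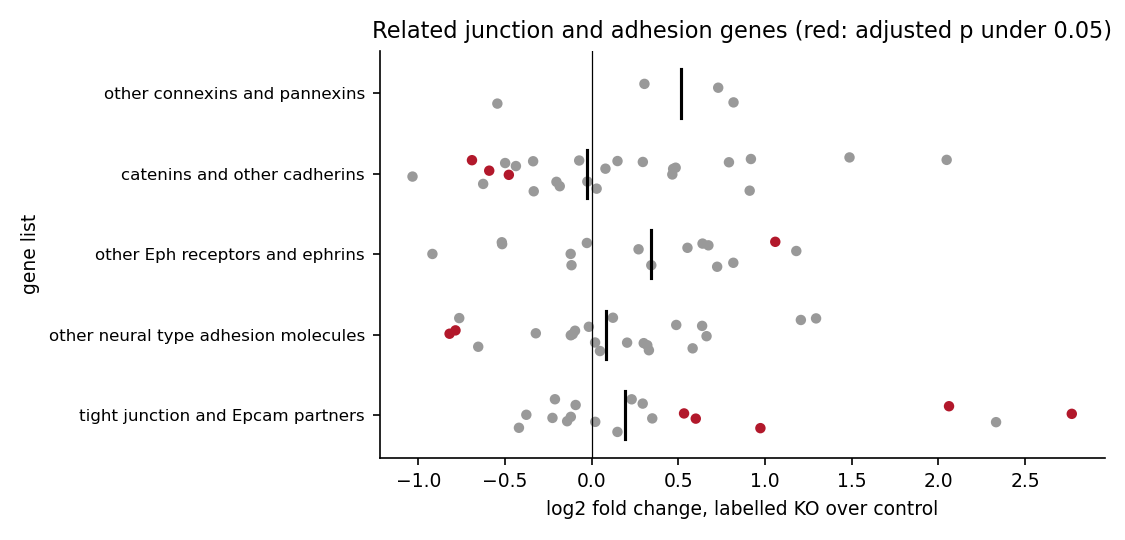
Log2 fold change of each tested gene in the 5 related lists, 1 point per gene, spread vertically only for legibility; black bars are list medians and red points have an adjusted p under 0.05. The red points lie left of 0 for catenins and cadherins (3) and neural type adhesion molecules (2), and right of 0 for Eph genes (1) and tight junction genes (5).

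Over the 5 related lists together, 84 of 123 genes were tested, 6 rose and 5 fell, where 6.76% of all tested genes were called. The rises numbered 0 and the falls 0 when control 2, control 3 or knockout-labelled replicate 1 was left out, and 1 and 1 without replicate 3. Without replicate 2 there were 5 rises and 3 falls, and without control 1 5 rises and 6 falls.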

How the data were processed

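The data are 6 RNA-seq libraries of isolated islets. Per the labels' protocols, 10 ng of total RNA per sample was copied with poly-dT priming by a low-input kit, sheared, and made into Ion Plus libraries. STAR 2.4.2a, Subread 1.5.0 with featureCounts, and edgeR appear among the submitters' processing notes, with the build mm10. Annotation, strand and multi-mapping settings were not stated there. The authors deposited whole-number counts per gene, not normalized, with summed exon length, per the file headers.

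Counts were tested in edgeR 4.0.16 (R 4.3.3) with TMM factors, its standard expression filter, quasi-likelihood fits on group alone, and Benjamini-Hochberg adjustment over all tested genes at 0.05. Standard errors come from the fold change and the F value. CPM uses TMM-scaled library sizes. GenomicRanges 1.54.1 was used to find exons shared between genes on either strand. The fit was tested on simulated data. Alternatives were RLE and upper-quartile factors, removal of acinar and hormone genes, 2 other filters, DESeq2 1.42.0, limma-voom (limma 3.58.1), a replicate block and leaving out each library.

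The members and gene lists were chosen with earlier results of these data known, and 4 of the listed genes were matched by their older symbols. Named genes were the 10 members, Dhps, up to 4 called genes per direction and the 2 most abundant per kb in each related list, the 2 most abundant markers of each cell type where these are described, and the 3 genes nearest to Gjd2 among genes whose mean log2 CPM reached 2. A gene that this rule names is not reported here. No library was a repeat of another: within a group, chi-square per degree of freedom was at least 11.1.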

Additional observations from a re-analysis of the deposited data

How the results depend on the processing

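The 9 tested genes of the set and Dhps kept the direction of their change under the normalization, filter, tool and block alternatives. DESeq2 called 990 genes higher and 712 lower against 568 and 361, and no filter gave 620 lower. For the 10 genes, no filter gave 1 lower call and DESeq2 gave 2, and for the related lists DESeq2 gave 11 higher and 8 lower. Gjd2 passed with no filter (−0.69) and with DESeq2 (−0.68), and DESeq2 also called Gjb1 (1.75) and Cdh1 (−0.33). Replicate numbers are shared between the groups. Deviations of same-numbered libraries from their group means had correlations of −0.04, −0.01 and 0.05. Differently numbered libraries spanned −0.12 to 0.13. So few values cannot decide whether same-numbered libraries pair. A replicate block called Gjd2 (−0.65, edgeR adjusted p = 0.0373) and Gjb1 (1.91, edgeR adjusted p = 0.0407) and so gave 3 higher and 1 lower call, while Cdh8 missed the threshold under it (−0.59, edgeR adjusted p = 0.0573). The cause of these differences was not tested.

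Leaving out 1 library in turn gave 56 to 534 genes higher and 8 to 434 lower, 0 to 3 and 0 to 1 among the 10, and 0 to 5 and 0 to 6 in the related lists. The log2 fold change ranged from −0.89 to −0.50 for Gjd2, 0.96 to 1.31 for Gja1, 1.28 to 2.56 for Gjb1, 2.30 to 2.98 for Gjb2, −0.39 to −0.27 for Cdh1 and −0.13 to 0.22 for Efna5. Efna5 was negative without control 3 (−0.13), knockout-labelled replicate 1 (−0.06) or 2 (−0.03). The hormone share difference ranged from −2.24 to 1.24 percentage points. Depth limits Epha5, Gjb2 and Gjb1 most, with 6, 4 and 6 counts in their lowest libraries.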
